A study of Rattus norvegicus with 8 samples.

Results

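Promoter probes close to the distal ends of the rat autosomes formed 777 runs, out of 24565 autosomal runs on the array. A run is a stretch of at least 3 tiled probes with gaps of at most 500 bp, and it stands in for a promoter. A run was counted as distal when its start lay within 3 Mb of the largest probe end coordinate on its chromosome (genome build rn4, chromosomes 1 to 20 without random contigs). The rule itself uses position alone and no measured value. The last probe marks where the array coverage ends and not the telomere itself. The 777 runs held 11183 probes, 11175 of which were tested, and each run kept at least 3 tested probes. All members are given by position without a gene name, and the labelled tissue was not checked against marker genes.

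The data come from the prefrontal cortex of 8 male Sprague-Dawley rats killed at PND62, with 1 male from each litter and 1 array per rat. The control (Ctrl) group held C180, C182, C184 and C185, 4 rats born to undisturbed dams. The prenatal stress (PNS) group held C141, C142, C144 and C145, 4 rats born to dams restrained under bright light several times a day through the last week of gestation. Methylated DNA was pulled down with an antibody against 5-methylcytosine (MeDIP), and the bound fraction (Cy5) and the input DNA (Cy3) of each rat were hybridised together on a promoter tiling array. Each of 4 slides carried a Ctrl array at position 1 and a PNS array at position 2, so position and group cannot be told apart. The signal is the log2 ratio of bound over input after quantile normalization, and the level of a run is the mean over its probes and over the 8 arrays unless a rat is named.

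The ends of chromosome arms carry telomeric repeats, and the DNA next to them is often rich in genes and in guanine and cytosine. Many rat chromosomes have their centromere at or near one end, so that the distal end closes the long arm. In mammals, promoters with many CpG sites (CpG islands) are mostly unmethylated, whereas promoters with intermediate CpG density and sequences outside islands are more often methylated. MeDIP measures the methylated DNA pulled down, which grows with the number of methylated CpG sites in a fragment as well as with the share of DNA molecules that carry them.

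Input spots were well above background for 61.0 to 72.9% of spots per array, and bound spots for 43.6 to 67.1%. Before normalization the SD of the log2 ratio was 0.61 to 0.70 on the arrays of C180, C182 and C141 and 0.99 to 1.22 on the other 5. The array of C141 had the lowest mean correlation with the other arrays (0.33, against 0.43 to 0.61 for the rest). Counts of calls are therefore also given without C141, as are the differences of runs picked for groups that did not overlap where C141 was extreme. Group differences of the highest and lowest runs, and counts of runs with groups that did not overlap, are given with C141 only.

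The distal windows were densely covered. They held 12.95 runs per Mb, compared with 9.56 per Mb over the rest of each autosome between its outermost probes. The median interval to the next run was 26.7 kb, against 36.7 kb elsewhere. The runs themselves had the same median number of probes (13) and a median span of 1150 bp, against 1122 bp elsewhere. The number of distal runs differed widely between chromosomes, from 6 on chromosomes 16 and 20 to 94 on chromosomes 7 and 11.

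Probes in distal runs were shorter. The median of the mean probe length per run was 52.3 nt in distal runs and 54.0 nt in the other runs. Probes of 45 nt, the shortest on the array, made up 24.2% of distal and 19.5% of other probes, and those of 60 nt, the longest, 33.5% and 41.6%. Probes on arrays of this type are matched for melting temperature, so that shorter probes generally lie in sequence richer in guanine and cytosine, but base composition itself was not measured. Input was above background on all 8 arrays for 63.5% of distal probes and 57.6% of others, and the bound signal for 44.5% and 40.8%.

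Taken as 1 set, the distal runs were close to the rest of the autosomes in signal. Their median level was -0.21 (interquartile range -0.48 to 0.15), and that of the 23788 other autosomal runs was -0.18 (-0.44 to 0.13). The difference between the medians was 0.02 on the array of C180, 0.01 on C182, -0.07 on C184 and -0.06 on C185 among the Ctrl rats. In the PNS rats it was -0.01 on C141, -0.04 on C142, -0.07 on C144 and -0.05 on C145. Distal runs were thus lower on 6 of 8 arrays, and the Ctrl and PNS values overlapped. Chromosome by chromosome, the distal median lay below the median of the other runs on 9 of 20 autosomes. The sign of the pooled difference also depended on the summary, since the mean over runs gave 0.01 in place of -0.03.

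Both tails were somewhat fuller in the distal windows. A level above 0.5 was found in 110 distal runs (14.2%) and 11.9% of other runs, and a level below -0.5 in 179 distal runs (23.0%) and 19.7% of other runs. A level above 1 was found in 43 distal runs (5.53%), against 4.20% elsewhere. The first 3 Mb of the same chromosomes had fewer high runs, with a median of -0.25 over 597 runs and a level above 1 in 14 of them (2.35%). Their share below -0.5 was 23.1%, much as in the distal windows. From 3 to 6 Mb the upper tail was fuller still, with 22.5% above 0.5 and 9.36% above 1, and 16.1% lay below -0.5. Neither tail was thus particular to the distal windows.

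The near-average median concealed a gradient with distance. In steps of 0.5 Mb from the last probe inwards, the median level was -0.33 (192 runs), -0.28 (140 runs), -0.28 (130 runs), -0.11 (108 runs), -0.05 (135 runs) and 0.06 (72 runs). For the mean of the arrays, the lowest of these steps was thus the last 0.5 Mb, and the highest the step just inside the limit of 3 Mb. On C180, C144 and C145 the last 0.5 Mb was not the lowest step. It stood at -0.19, -0.33 and -0.32 there, against -0.28, -0.35 and -0.33 in the lowest step. On the remaining arrays it was the lowest. On C182 the highest of these steps was that from 1.5 to 2 Mb. Just outside the limit of 3 Mb, from 3 to 3.5 Mb, the median of 79 runs was -0.00, and over the whole band from 3 to 6 Mb (684 runs) it was -0.05. Farther in, the median was -0.06 between 6 and 10 Mb, -0.13 between 10 and 20 Mb and -0.19 beyond 20 Mb. The outermost promoters were therefore below the level of the chromosome interior, and those a few Mb in were above it. The limit of 3 Mb fell within the higher zone.

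**Figure D1:**
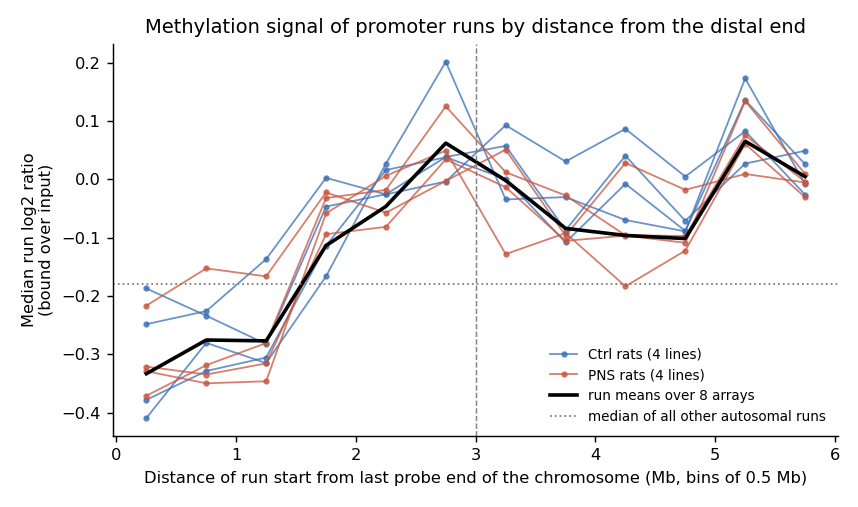
Median log2 ratio (bound over input) of promoter runs in bins of 0.5 Mb from the last probe of each autosome, for each of 4 Ctrl and 4 PNS rats (thin lines) and for the mean of the 8 arrays (black). The dashed line marks 3 Mb and the dotted line the median of all other autosomal runs (-0.18); on the black line the bins within 1.5 Mb lie between -0.33 and -0.28 and the bin before 3 Mb reaches 0.06.

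The distal runs were split at 1.5 Mb, a limit chosen after the gradient had been seen, so the values that follow describe it and carry no test. The 462 near runs had a median level of -0.30 and the 315 far runs of -0.05. On the Ctrl arrays the near-minus-far difference was -0.20 (C180), -0.20 (C182), -0.33 (C184) and -0.32 (C185). On the PNS arrays it was -0.16 (C141), -0.31 (C142), -0.33 (C144) and -0.27 (C145). Near runs were lower on 8 of 8 arrays, with an SD over arrays of 0.0685, and the groups overlapped. The 3 smallest differences belonged to C180, C182 and C141, the arrays with the narrowest log2 ratios before normalization.

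Strongly enriched promoters were mostly far from the end. A level above 0.5 was reached by 29 near runs (6.28%) and by 81 far runs (25.7%). A level above 1 was reached by 9 near and 34 far runs. Levels below -0.5 were found in 129 near runs (27.9%) and 50 far runs (15.9%). The plot by distance shows the same order on each array in its outermost and its last distal bin.

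The order also held within bins of probe length. Median probe length was 52.6 nt in near runs and 51.9 nt in far runs. Within 7 bins of mean probe length, from 45 to 48 nt up to 58 to 60 nt, near runs were lower than far runs in 7 of 7. The difference was -0.27, -0.24, -0.68, -0.22, -0.23, -0.12 and -0.08 from the shortest to the longest bin. In the same bins, distal runs as a whole were below the other runs in 7 of 7, with differences of -0.09 to -0.01 on the log2 scale.

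The near runs were lower than the far runs on 18 of 20 chromosomes. The largest differences were on chromosome 7 (-1.08, 54 near and 40 far runs), chromosome 1 (-0.84, 17 and 19 runs) and chromosome 19 (-0.72, 7 and 7 runs). Chromosome 9 went the other way (0.05, 7 and 16 runs), as did chromosome 20 (0.40), where there was only 1 far run. Chromosomes 11 and 14, with 94 and 34 distal runs, showed little difference (-0.04 and -0.01). Chromosome 7 weighed most on the pooled value: without it the near-minus-far difference was -0.16 in place of -0.25. The difference was also -0.10 after normexp background correction and -0.43 with probes of bright input on all 8 arrays.

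**Figure D2:**
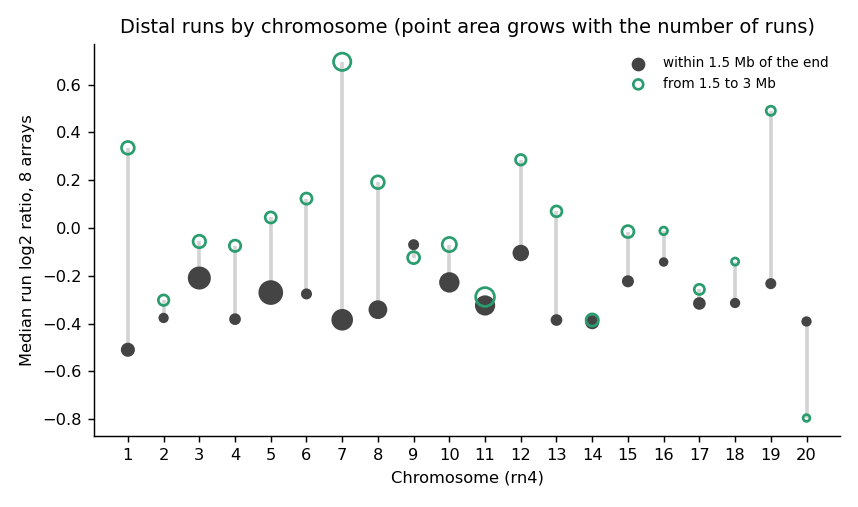
Median log2 ratio of distal promoter runs on each rat autosome, for runs within 1.5 Mb of the last probe (filled) and runs from 1.5 to 3 Mb (open), mean of 8 arrays; point area grows with the number of runs. The filled point is lower on 18 of 20 chromosomes, with the widest gap on chromosome 7 (-0.38 against 0.70).

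Chromosome 7 held 3 of the 4 high stretches. A stretch here is at least 4 neighbouring distal runs that all lie above 0.5, or all below -0.5. Those on chromosome 7 were at chr7:140213165-140268943 (4 runs, median level 0.79), chr7:140480354-140547061 (4 runs, 1.57) and chr7:140589974-140722279 (5 runs, 0.91), all between 1.74 and 2.25 Mb from the last probe. Another lay on chromosome 8, at chr8:126268363-126459971 (4 runs, 1.12), 2.45 to 2.64 Mb from the end.

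In the 5 runs of chr7:140589974-140722279 the mean level per Ctrl rat was 1.29 (C180), 1.04 (C182), 1.55 (C184) and 1.71 (C185). The PNS rats gave 0.65 (C141), 1.45 (C142), 1.58 (C144) and 1.66 (C145). C141 was the lowest of the 8 and the other PNS rats lay within the Ctrl range. High and intermediate promoters alternated in this stretch: chr7:140627889-140628999 had a level of 2.33, its neighbour chr7:140644045-140645126 0.59, and the next run, chr7:140655195-140656397, 2.31. The highest run of all distal members was chr7:140507361-140507531 (2.73), which rests on 3 probes.

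The low stretches lay nearer to the end. One was on chromosome 5 at chr5:172657449-172684656 (5 runs, median level -0.66), 0.41 to 0.43 Mb from the last probe, and 4 of its 5 runs are neighbouring pieces of 1 densely tiled region that ends at 172668080. The other, chr12:46539293-46648245 (4 runs, -0.88), started 0.19 Mb from the end. On chromosome 5 the mean of the 5 runs was -0.38 (C180), -0.25 (C182), -0.89 (C184) and -1.04 (C185) in Ctrl rats, and -0.24 (C141), -0.96 (C142), -1.04 (C144) and -1.07 (C145) in PNS rats. The weakest signals were again those of C180, C182 and C141, and the groups overlapped.

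**Figure D3:**
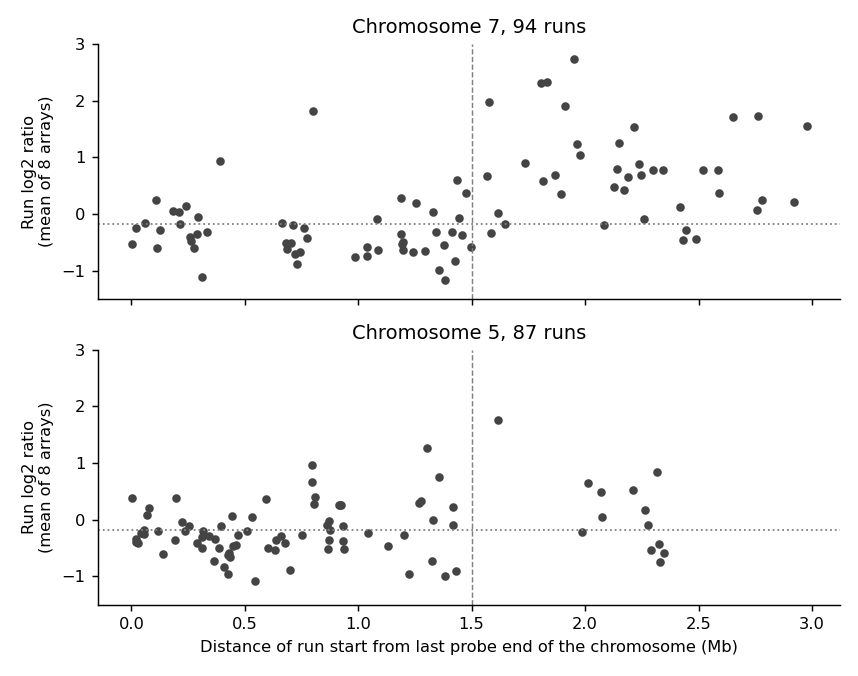
Log2 ratio of each distal promoter run (mean of 8 arrays) against the distance of its start from the last probe of the chromosome, for chromosomes 7 (94 runs) and 5 (87 runs). The dotted line is the median of all other autosomal runs (-0.18) and the dashed line marks 1.5 Mb; on chromosome 7 the median is -0.38 left of it and 0.70 right of it, and on chromosome 5 it is -0.27 and 0.04.

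Among distal runs of at least 8 probes, the 5 with the highest level are given by a fixed rule, so their height is a description. They were chr12:45546462-45547635, chr4:183987816-183988937, chr10:108406984-108407612 and the 2 runs on chromosome 7 at 2.33 and 2.31. All had short probes (46.7 to 50.3 nt on average) and lay 1183 to 2935 kb from the end. In the chromosome 12 run the values were 2.72 (C180), 2.17 (C182), 2.90 (C184) and 2.66 (C185) in Ctrl rats, and 1.53 (C141), 2.91 (C142), 2.70 (C144) and 2.91 (C145) in PNS rats. C141 stood below the others, which lay between 2.17 and 2.91. The chromosome 4 run gave 2.32, 2.08, 2.59 and 2.95 in the Ctrl rats and 1.67, 2.52, 2.68 and 2.83 in the PNS rats, in the same order of rats. C141 was again lowest. In all 5 of these runs each probe had a bound signal above background on all 8 arrays.

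The chromosome 12 run, at 1183 kb, is 1 of the 9 near runs above 1. Another, the run chr10:110376039-110376887, 300 kb from the last probe, had a level of 2.04 over 10 probes, and chr7:141656521-141657695, at 802 kb, had 1.83 over 13 probes.

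The 5 lowest runs of at least 8 probes were chr7:141074686-141075678 (-1.16), chr7:142149280-142150418 (-1.10), chr10:110646607-110647815 (-1.06), chr17:96757667-96758767 (-1.02) and chr14:111181760-111182932 (-0.995). All 5 lay within 1.5 Mb of the end. Input was above background on all 8 arrays for most of their probes (12 of 14 in the first, 10 of 11 on chromosome 17), whereas the bound signal was so for few (4 of 14 and 3 of 11). In chr7:142149280-142150418 the Ctrl rats had -0.93, -0.88, -1.20 and -1.18 and the PNS rats -0.86, -0.95, -1.40 and -1.40. The groups overlapped there. The run on chromosome 17 had -0.50, -0.81, -0.82 and -1.11 in the Ctrl rats and -0.92, -1.38, -1.34 and -1.33 in the PNS rats. There only C185 reached into the PNS range. In chr7:141074686-141075678 the values were -0.51, -0.47, -1.27 and -1.34 against -0.64, -1.64, -1.64 and -1.79, with C141 within the Ctrl range. The weakest signals in that run were those of C180 and C182 (Ctrl) and C141 (PNS), the arrays with the narrowest log2 ratios before normalization. All 5 lowest runs had a negative PNS-minus-Ctrl difference, from -0.53 to -0.10, and the 2 just described were called by the 2-stage rule explained below. The unadjusted limma p was 0.025 on chromosome 17 and 0.0898 in the chromosome 7 run, or 0.0114 and 0.0181 with the slide as a block. The part of the narrower arrays in these differences was not tested.

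The last run of each autosome was examined as a set of 20. In 18 of them the run ended within 2 kb of the last probe end, whereas on chromosomes 2 and 17 isolated probes follow and the run started 140.6 and 327 kb before it. The levels ran from -0.79 to 0.54 with a median of -0.36, and 13 of 20 lay below the median of the other autosomal runs. The lowest was on chromosome 3 (chr3:171020914-171022144), with -0.53, -0.95, -0.66 and -0.99 in the Ctrl rats and -0.56, -0.92, -0.88 and -0.78 in the PNS rats. The highest was on chromosome 9 (chr9:112832882-112833178), with 0.58, 0.87, 0.15 and 0.15 in the Ctrl rats and 1.22, 0.40, 0.57 and 0.34 in the PNS rats, over 5 probes. In both the groups overlapped. On chromosome 11 the last run was a tiled region of 67 probes (chr11:87224186-87229531) with a level of -0.31.

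The PNS-minus-Ctrl difference of these last runs was positive in 10 and negative in 10, from -0.42 to 0.45 on the log2 scale. The smallest unadjusted limma p was 0.0537, for chr20:54907315-54908437, where the Ctrl rats had -0.10, -0.02, -0.20 and -0.63 and the PNS rats -0.26, -0.56, -1.05 and -0.76. The value of C185 fell within the PNS range. No last run passed an unadjusted p of 0.05 in limma without a block. With the slide as a block the p of this run was 0.0302, and its within-slide differences were -0.16, -0.54, -0.85 and -0.13.

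The study asks whether prenatal stress leaves a methylation difference in the adult prefrontal cortex. For the distal runs, no difference passed correction over all autosomal runs: limma on run means gave 0 runs with an adjusted p of at most 0.2, distal or elsewhere, and the smallest adjusted p was 0.9998. Single probes gave 0 as well in limma, with a smallest adjusted p of 0.968. At p of at most 0.05 in limma without adjustment, 29 distal runs and 992 autosomal runs in all remained, so the counts that follow describe unadjusted differences. The p-values measure the spread between single rats of different litters.

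At that unadjusted level, 10 distal runs were higher in PNS (1.29%), against 2.19% of all autosomal runs, and 19 were lower (2.45%), against 1.85%. All 4 PNS rats lay above all 4 Ctrl rats in 9 distal runs (1.16%), compared with 1.78% of all runs, and all below in 13 (1.67%), compared with 1.45%. These shares are near the background in both directions, with fewer distal runs on the higher side. Without C141, 29 distal runs were higher and 53 lower (10.6% together), and 11.0% of all autosomal runs passed. Without C142 or without C144, 14 distal runs passed (1.80%), against 2.63 and 2.10% of all runs.

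Under the 2-stage rule of the study's methods, a probe first has to differ by at least 0.5 on the log2 scale with p of at most 0.05 in limma, unadjusted. That stage was passed by 519 distal probes (4.64%), where 4.86% of all probes passed. In 256 distal probes the signal was higher in PNS (2.29%, with 2.61% over all probes) and in 263 lower (2.35%, with 2.25% over all). The distal share was thus near the background, as it was without C141, when 1060 distal probes (9.49%) and 9.20% of all probes passed.

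The second stage ranks the t-statistics of a run against those of all other probes and calls the run at an FDR of at most 0.2. It called 76 distal runs (9.78%), against 10.6% of all autosomal runs. Of these, 24 were higher in PNS (3.09%, background 4.86%) and 52 lower (6.69%, background 5.74%). This stage takes probes as independent, but deviations of neighbouring probes in distal runs were correlated across rats (mean r = 0.33 over 10398 pairs), so its FDR is too small. Of the 76 runs, 22 also had a run-mean p of at most 0.05 in limma, and 7 had first-stage probes in both directions. Without C141 the rule called 151 distal runs (19.4%, with 20.3% of all runs), and without C144 48 (6.18%, with 6.42%).

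The differences of the distal runs leaned slightly towards lower signal in PNS. The median difference was -0.04, compared with -0.00 over other runs, and 452 of 777 runs (58.2%) were lower in PNS, compared with 50.3% of other runs. By chromosome, the median difference was negative on 11 of 20 for distal runs and on 7 of 20 for other runs. The median level of the distal runs was not lower in PNS (-0.215, against -0.224 in Ctrl). Within slides, the share of distal runs lower in the PNS rat was 52.6% (C141 against C180), 54.1% (C142 against C182), 54.1% (C144 against C184) and 55.7% (C145 against C185). The other runs gave 49.5, 49.0, 49.9 and 50.7% for the same pairs. The distal share was higher in each pair by 3 to 5 points.

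The lean followed probe length over the whole array. Among other autosomal runs, 58.2 to 65.7% were lower in PNS in the 3 bins of mean probe length up to 52 nt, but 23.9% in the bin from 58 to 60 nt. Distal runs gave 64.2 to 66.9% and 24.1% in the same bins. Given the probe lengths of the distal runs, the other runs would have a share of 54.4%, and within bins the distal share was the higher in 6 of 7. The lean was not particular to the last 3 Mb either, as 58.9% of the runs from 3 to 6 Mb were lower in PNS, whereas the first 3 Mb of the chromosomes gave 49.4%. With probes of bright input alone the distal share was 51.3% and that of other runs 48.4%. The part of probe length in the lean was not tested.

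**Figure D4:**
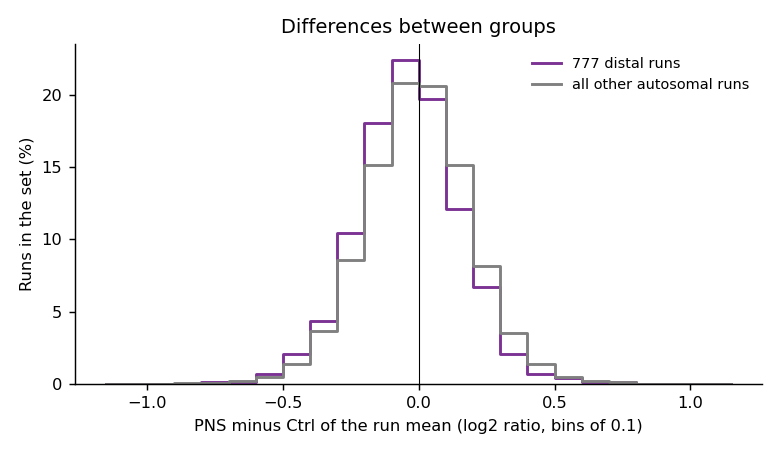
Distribution of the PNS-minus-Ctrl difference of run means (log2 ratio, bins of 0.1) as a percentage of the 777 distal runs and of all other autosomal runs. The distal curve is shifted slightly to the left, with a median of -0.04 against -0.00, and both curves overlap almost entirely.

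The runs described next were picked for groups that did not overlap and for the smallest limma p, among distal runs of at least 5 probes. Their differences are a description, and the adjusted limma p was 0.9998 for each. Without adjustment the limma p ran from 0.00164 to 0.0389 in the 6 runs on the lower side and from 0.00673 to 0.198 in the 6 on the higher side, beside an exact permutation test. That test of 4 against 4 gives a two-sided p of 0.0286 for any such run, the smallest that 70 assignments allow. The slide as a block took 2 lower runs past 0.05 in limma (chr3:170039370-170040538, 0.0551, and chr10:108764488-108765667, 0.0515) and brought 1 higher run under it (chr11:87213802-87214471, 0.0443).

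The lowest p belonged to chr5:172974088-172975293, a run of 18 probes 116 kb from the end of chromosome 5. The Ctrl rats had 0.08 (C180), 0.12 (C182), 0.12 (C184) and 0.01 (C185), and the PNS rats -0.65 (C141), -0.31 (C142), -0.69 (C144) and -0.33 (C145). Ctrl rats were close together, and PNS rats were lower and more spread. The difference was -0.58 (SE 0.14), all 18 probes were lower in PNS, and 6 of them passed the first stage. The within-slide differences ran from -0.81 to -0.34, and input was bright on all 8 arrays at 16 of the 18 probes. With bright probes alone the difference was -0.39.

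The run chr19:57356588-57357561, of 13 probes and 1857 kb from the end, had a high level throughout. It stood at 1.54, 1.56, 1.62 and 1.46 in the Ctrl rats and at 0.20, 1.11, 1.18 and 1.16 in the PNS rats, in the same order of rats. C141 lay far below the other PNS rats, which were themselves below each Ctrl rat. The difference was -0.63 (SE 0.21), and within slides it ran from -1.34 to -0.30. All 13 probes were lower in PNS, and without C141 the difference was -0.42.

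Both runs on chromosome 3 had short probes and bright input. In chr3:170725488-170726745 (16 probes, 297 kb from the end) the Ctrl rats had 0.38, 0.27, 0.47 and 0.46 and the PNS rats 0.23, 0.01, -0.16 and 0.09, in the order of rats used above. The lowest Ctrl rat was just above the highest PNS rat. In chr3:170039370-170040538 (11 probes, 983 kb) they had 0.21, 0.32, 0.30 and 0.26, and -0.07, -0.01, -0.09 and 0.09. The differences were -0.36 (SE 0.14) and -0.29 (SE 0.12).

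The other 2 runs on the lower side were on chromosomes 8 and 10. In chr8:127590828-127591746 (8 probes, 1319 kb from the end) the Ctrl values were -0.01, -0.04, -0.15 and -0.28 and the PNS values -0.46, -0.92, -0.44 and -0.38. C142 lay below the other PNS rats, and input was bright at 4 of 8 probes. In chr10:108764488-108765667 (12 probes, 1912 kb) they were -0.10, 0.37, 0.12 and 0.00, and -0.11, -0.27, -0.20 and -0.38, so that the difference between C141 and C180, on slide 1, was -0.01. The differences were -0.43 and -0.34. With bright probes alone, 5 of these 6 lower runs no longer reached p of 0.05 in limma, with differences between -0.39 and -0.18. The chromosome 19 run kept -0.67 there but fell short of that level with median centring (-0.31) and with loess (-0.48).

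On the higher side, only 3 of the 6 runs had a limma p of at most 0.05. The first was chr6:144836100-144837043 (15 probes, 2719 kb from the end), with -0.71, -0.71, -0.56 and -0.70 in the Ctrl rats and -0.37, -0.22, -0.21 and -0.27 in the PNS rats. Values were tight within each group, and the difference was 0.41 (SE 0.12). Input was bright on all arrays at only 3 of its 15 probes, and with bright probes alone the difference turned to -0.17.

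The other 2 were on chromosome 8. In chr8:127993285-127994913 (14 probes, 917 kb) the Ctrl rats had -0.58, -0.81, -0.66 and -0.67 and the PNS rats 0.26, -0.30, -0.31 and -0.44. C141 was the highest of the 8, and 13 of 14 probes were higher in PNS, with a difference of 0.48 (SE 0.17), or 0.35 without C141. In chr8:127660450-127661324 (11 probes, 1250 kb) the values were -0.44, -0.20, -0.18 and -0.07 against 0.01, 0.14, 0.08 and 0.12. That difference was 0.31 (SE 0.13), with bright input at 2 of 11 probes. It was 0.14 with loess and 0.10 with normexp, and no longer reached p of 0.05 in limma with either. The other run on chromosome 8 gave 0.29 with median centring, also short of that level. It reached that level in 14 of 15 alternatives, among them bright probes alone (0.59) and normexp (0.13). The lower run at chr8:127590828-127591746 lies close to the higher run at chr8:127660450-127661324, at 1319 against 1250 kb from the end. Nearby promoters thus had differences of opposite sign.

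The remaining 3 runs missed that level in limma. In chr11:87213802-87214471 (5 probes, 15.7 kb from the end) C141 stood at 1.12, and the other PNS rats at -0.11, -0.05 and -0.08 were only just above the Ctrl rats, at -0.30, -0.21, -0.29 and -0.38 (difference 0.51, or 0.22 without C141). In chr7:142330638-142331877 (15 probes, 128 kb) the difference was 0.25, and in chr11:85494875-85495869 (13 probes, 1735 kb) it was 0.17. The separation of these groups was narrow, as the plot of the 12 runs shows.

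**Figure D5:**
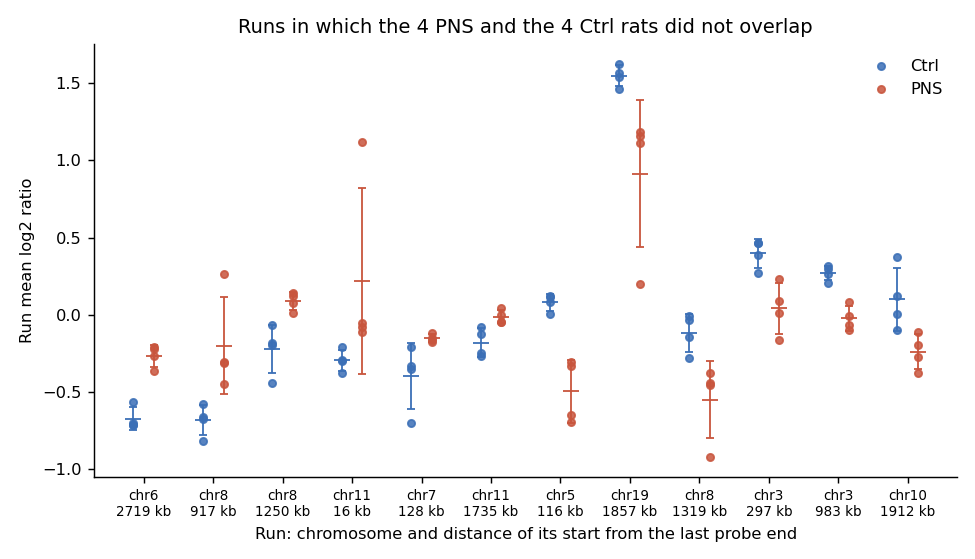
Run mean log2 ratio of each rat in the 12 distal runs chosen because the 4 PNS and 4 Ctrl rats did not overlap, labelled by chromosome and distance from the last probe; horizontal bars and whiskers are group means and SD (n = 4). The group means differ most on chromosome 19 (1.55 and 0.91) and chromosome 5 (0.08 and -0.50). Single PNS rats stand apart on chromosomes 8 (1319 kb), 11 (16 kb) and 19.

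Of the higher runs, 5 of 6 had input bright on all 8 arrays at fewer than 50% of their probes, whereas this held for 0 of the 6 lower ones. Mean probe length was 52.5 to 60.0 nt in the former and 48.1 to 56.5 nt in the latter. These properties moved with the direction of the difference, and their part in it was not tested.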

How the data were processed

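MeDIP-chip of 4 Ctrl and 4 PNS rats gave 1 array each. The authors scanned the arrays and extracted spot intensity with Feature Extraction 10.7.3.1. Each deposited intensity had its background removed and its dyes scaled within the array by that software. The deposited log10 ratio of the software and the deposited value table served as alternatives. That table holds the authors' log2 ratio of background-subtracted median signals, quantile-normalized, with column medians of -0.55 to -0.53. It correlated with such ratios at r = 0.973 to 0.999 and lacks spots without signal above background, so 340440 probes were complete.

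The log2 ratio of processed bound over input signal was computed. Control spots and 405 saturated or non-uniform spots were left out, repeated probes averaged, and 375108 probes quantile-normalized. Differences between groups came from limma (version 3.58.1, R 4.3.3) without a block, with Benjamini-Hochberg adjustment over all runs or all probes. The second stage was a rank-sum test of t-statistics. The study's deconvolution step was not used here. Scripts were tested on simulated data. No pair of arrays held identical values, and precision is limited by the 8 arrays.

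Runs named are the last per autosome, the 5 highest and 5 lowest of at least 8 probes, and up to 6 per direction of at least 5 probes with groups that did not overlap and the smallest p. Planned gene lists were not applied, since no annotation of rn4 was at hand. Members and lists were chosen with earlier results of these data known. Alternatives were other ratios, normalizations, filters, distances, gaps and thresholds, the slide as a block, and each rat left out. The split at 1.5 Mb, probe-length bins and the share lower in PNS were added after the data were seen. Same-slide deviations correlated at 0.20, -0.12, 0.18 and 0.20. The main fits held no slide term, as planned, and the slide as a block is given as an alternative.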

Additional observations from a re-analysis of the deposited data

Results flagged for a closer look

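Within each group of 4 rats, the values of the named runs and of the summaries per array were screened for 1 rat far from the other 3 by Dixon's criterion. Of 92 groups of values, 11 held such a rat, and 8 of the 11 were C141, the PNS array with the lowest correlation with the rest. The criterion flags about 1 in 20 independent groups by chance. These groups share the same arrays and many runs were picked on these values, so the count is a description and no test of an excess.

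C141 had 0.18 at chr6:147553851-147555088, where the other PNS rats had -0.53 to -0.44. It had -0.16 at chr17:96815638-96816843 (others 0.14 to 0.16) and 1.53 at chr12:45546462-45547635 (others 2.70 to 2.91). Its signal was closer to 0 than that of the other PNS rats in low runs, with -0.64 at chr7:141074686-141075678 (others -1.79 to -1.64), -0.61 at chr10:110646607-110647815 (others -1.48 to -1.35) and -0.92 at chr17:96757667-96758767 (others -1.38 to -1.33). Among runs with separated groups, it had 1.12 at chr11:87213802-87214471 (others -0.11 to -0.05) and 0.20 at chr19:57356588-57357561 (others 1.11 to 1.18).

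Other rats stood apart 3 times. Ctrl rat C180 had -0.73 at chr18:86352981-86354240 (others -0.33 to -0.26), Ctrl rat C184 had -0.56 at chr6:144836100-144837043 (others -0.71 to -0.70), and PNS rat C142 had -0.92 at chr8:127590828-127591746 (others -0.46 to -0.38).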

How the results depend on the processing

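The distal-minus-other difference in median level (-0.03) was 0.0104 as a mean over runs, 0.00813 with the authors' value table, -0.13 within 1 Mb, 0.0139 within 5 Mb and -0.0766 within probe-length bins; leaving out 1 rat gave -0.05 to -0.03. The near-minus-far difference (-0.25) was -0.43 with bright input, -0.18 with loess, -0.10 with normexp, -0.35 with the authors' value table, -0.18 with a split at 1 Mb and -0.16 without chromosome 7, and -0.28 to -0.22 with 1 rat left out. The share of distal runs lower in PNS (58.2%) was 51.3% with bright input, 54.3% with loess, 62.8% with median centring, 51.7% with normexp, 62.3% with the authors' value table, and 55.6 to 58.6% with 1 rat left out. The share of other runs was 50.3%, and under these settings 48.4%, 50.3%, 55.7%, 45.1%, 55.7% and 49.4 to 50.3%. First-stage probes (519) numbered 287 with bright input (4.09%, all probes 4.09%), 254 at a difference of at least 1 (2.27%, all 2.34%), 92 with normexp (0.823%, all 0.63%), 240 within 1 Mb (5.05%) and 796 within 5 Mb (4.48%, all 4.86%), and 374 to 1060 with 1 rat left out (3.35 to 9.49%, all 3.43 to 9.20%). The 2-stage rule (76 runs) called 28 at an FDR of 0.05 (3.60%, all runs 3.59%), 118 with median centring (15.2%, all 14.96%), 35 with normexp (4.50%, all 3.37%), 30 within 1 Mb (9.04%) and 122 within 5 Mb (9.81%, all 10.6%), and 48 to 151 with 1 rat left out (6.18 to 19.4%, all 6.42 to 20.3%). Run means at p of at most 0.05 (29) numbered 15 with bright input (2.11%, all 2.53%), 13 within 1 Mb (3.92%) and 52 within 5 Mb (4.18%, all 4.04%), and 14 to 82 with 1 rat left out (1.80 to 10.6%, all 2.10 to 11.0%). Blocking on slide (replicate block) gave counts of 669 probes (5.99%, all 6.14%), 83 runs (10.68%, all 11.1%) and 38 runs (4.89%, all 5.25%). With that block 0 runs passed an adjusted limma p of 0.2 (38 at an unadjusted p of 0.05). Under the alternatives, 130 values of the 12 separated runs kept their side of a limma p of 0.05. Another 42 lost that level, 4 gained it and 1 changed sign (chr6:144836100-144837043, -0.17 with bright input). Of the 130, 15, 11 and 13 came from chr11:85494875-85495869, chr11:87213802-87214471 and chr7:142330638-142331877, where p merely stayed above 0.05. All 42 losses fell on the runs that had reached 0.05. Among the levels of the last, highest and lowest runs, 49 values moved by more than the SD of the run over arrays and 367 did not. The causes were not tested. Dim bound signal (43.6 to 67.1% of spots above background) limits the low runs.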
